A study of Mus musculus with 10 samples.

Results

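Ncl, Npm1, Nolc1, Fbl, Ddx21 and Polr1b, 6 genes whose protein products work in the nucleolus on making ribosomes, were followed across serum state and ribosome loading in primary mouse embryonic fibroblasts. A gene was included when a probe set carried its symbol, and no other, in the platform annotation, and each of the 6 had 1 such probe set, out of 8251 genes named this way by the array. All 6 passed the filter on dim probe sets, which kept 9316 of 12422. The fibroblasts came from embryos at day 14.5 of the strain written C57/BLACK6 and carried the genotype ATF1 +/-, so that serum-treated and starved cells alike had 1 disrupted copy of the gene, and its level was not analysed here. Every culture was starved for 48 h in 1% dialyzed serum. Serum-treated cultures were then given 10% serum for 2 h, and starved cultures 1% serum for the same time. RNA was taken from 3 pools. On a sucrose gradient, polyribosome RNA came from the fractions with 2 or more ribosomes per mRNA. Undertranslated RNA carried 1 ribosome, a lone ribosomal subunit or none. Cytoplasmic RNA was not fractionated. Gradient cultures received cycloheximide, which halts ribosomes on their mRNA, at 100 ug/ml for 30 min, and cytoplasmic cultures did not, so the drug and the difference between gradient and cytoplasmic pools cannot be told apart.

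The 10 arrays form 6 groups: serum-treated and starved polyribosome RNA with 2 arrays each, serum-treated and starved undertranslated RNA with 2 arrays each, and serum-treated and starved cytoplasmic RNA with 1 array each. In every gradient group replicate 2 came from cultures that also received 4-thiouridine, a nucleoside built into new RNA, at 200 uM together with 3H-cytidine. Replicate 1 received neither. Equivalent fractions from several cultures and gradients went into each array as a pool. The p-values therefore reflect how much such pools varied, together with any effect of the labelling, in which the replicates of a group differ. Where cytoplasmic arrays, 1 per group, are tested with polyribosome arrays, the spread also holds any difference of the serum response between the 2 pools. In such bulk RNA, fewer cells of a type and less RNA per cell cannot be told apart.

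Ribosome production starts in the nucleolus, where RNA polymerase I transcribes the ribosomal RNA precursor, small nucleolar ribonucleoproteins modify it, and helicases and assembly factors fold and trim it into the subunits. The pathway is known to be driven by growth factors, in part through Myc and the mTOR kinase. Nucleolin, encoded by Ncl, and nucleophosmin, encoded by Npm1, are abundant nucleolar phosphoproteins that bind RNA and act as chaperones of assembly. Nolc1 encodes Nopp140, a phosphoprotein that associates with small nucleolar ribonucleoproteins. Fbl encodes fibrillarin, the 2′-O-methyltransferase of box C/D particles. Ddx21 encodes an RNA helicase, and Polr1b encodes the second largest subunit of RNA polymerase I.

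The pools differed in brightness far more than the serum states. The median deposited intensity of an array was 45.3 to 54.2 in polyribosome RNA, 5.7 to 8.8 in undertranslated RNA, and 19.2 in serum-treated and 19.1 in starved cytoplasmic RNA. The share of probe sets above background, meaning above the brightest of 19 bacterial and yeast control probe sets on that array, was 68% to 73.5% in polyribosome RNA and 43.4% to 53.5% in undertranslated RNA. Replicates differed by a median SD of 0.2 log2 units in both polyribosome groups, against 0.56 in serum-treated and 0.34 in starved undertranslated RNA. The 3′ to 5′ ratio of actin probe sets, a sign of RNA or amplification quality, was 11.5 to 21.1 in polyribosome RNA, 23.6 and 33.9 in serum-treated and 137 and 61.4 in starved undertranslated RNA, and 11.9 in serum-treated and 16.6 in starved cytoplasmic RNA. The same ratio for Gapdh had another order, with 6.11 to 20.9 in polyribosome RNA, 3.7 and 4.53 in serum-treated and 5.64 and 6.81 in starved undertranslated RNA, and 28.4 in serum-treated and 47 in starved cytoplasmic RNA. All 15 fibroblast markers were above background on every polyribosome and cytoplasmic array, and 13 of 15 on every undertranslated array. Of 7 endothelial markers, 5 were above background on both serum-treated and 4 on both starved polyribosome arrays, and of 7 epithelial markers 5 and 1. Of 12 macrophage markers, 9 were above background on both serum-treated and 8 on both starved polyribosome arrays, shares near those of all probe sets. They included Adgre1, with 24.5 and 57.8 in serum-treated and 22.2 and 24.5 in starved polyribosome RNA, and Cd68, with 136.2 and 198.7 in serum-treated and 83 and 79 in starved. Ptprc had 27.3 and 16.3 in serum-treated polyribosome RNA, against 2.9 and 2.9 in starved, where it was below background. Itgam and Aif1 of the same list stayed at an intensity of 3.3 or less on all 10 arrays.

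As deposited, each of the 6 mRNAs was brighter on all polyribosome arrays than on any undertranslated array. Most other probe sets were brighter in polyribosome RNA as well, with a median difference over all probe sets tested of 3 log2 units. The test on the deposited values called 8471 of 9316 probe sets, in either direction. The separation is therefore not particular to these genes. Ncl had intensities of 1852.5 and 2357.1 in serum-treated and 2207 and 2088.7 in starved polyribosome RNA. It had 2.9 and 39 in serum-treated and 35.4 and 55 in starved undertranslated RNA. Cytoplasmic RNA had 978.7 in serum-treated and 1171.8 in starved cells. The serum-treated undertranslated value of 2.9 was the only Ncl value below its array's background, and it lay far under the other replicate.

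Npm1 was bright in every pool. It had 7415.4 and 6735.3 in serum-treated and 7538.1 and 6883 in starved polyribosome RNA. It had 275.6 and 873 in serum-treated and 1552.1 and 1788.8 in starved undertranslated RNA, and 1582.2 in serum-treated and 1902.9 in starved cytoplasmic RNA. As deposited the 2 serum states overlapped in polyribosome RNA and were separate in undertranslated RNA, where both serum-treated arrays were dimmer. On the scaled values used in the tests below, the states were separate in both pools. Polyribosome RNA then had 11.47 and 11.4 in serum-treated against 11.56 and 11.7 in starved cells. Nolc1 was dim. It had 50.4 and 55.5 in serum-treated and 50 and 50.9 in starved polyribosome RNA, against 9.5 and 1.8 in serum-treated and 3.1 and 6.4 in starved undertranslated RNA. Only 1 of those 4 undertranslated values was above background. Cytoplasmic RNA had 34.5 in serum-treated and 24.9 in starved cells.

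Fbl had 476.6 and 409.8 in serum-treated and 370.3 and 401.6 in starved polyribosome RNA. It had 9.4 and 8.1 in serum-treated and 12.1 and 12.7 in starved undertranslated RNA, where the second serum-treated value was below background. Cytoplasmic RNA had 343.9 in serum-treated and 188.7 in starved cells. As deposited, serum-treated values were higher on both polyribosome arrays and lower on both undertranslated arrays. They were also higher in cytoplasmic RNA, where each state has 1 array. Serum-treated undertranslated arrays were dimmer in general, with medians of 5.7 and 8 against 7.6 and 8.8 in starved. On the scaled values the Fbl serum states overlapped in undertranslated RNA, with 5.43 and 4.41 in serum-treated against 5.21 and 5.05 in starved. Ddx21 had 515.5 and 317.6 in serum-treated and 379.4 and 354.5 in starved polyribosome RNA, 30 and 45.1 in serum-treated and 34.2 and 29.2 in starved undertranslated RNA, and 124.5 in serum-treated and 76.5 in starved cytoplasmic RNA. As deposited the serum states of Ddx21 overlapped in both gradient pools. On the scaled values they were separate in undertranslated RNA, with 7.95 and 7.69 in serum-treated against 7.05 and 6.49 in starved.

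Polr1b had 138.2 and 117.2 in serum-treated and 104 and 96.8 in starved polyribosome RNA. It had 28.1 and 46.3 in serum-treated and 38.1 and 55.4 in starved undertranslated RNA, with 56 in serum-treated and 53 in starved cytoplasmic RNA. The serum states did not overlap in polyribosome RNA, where the serum-treated arrays were brighter. The share of all probe sets with such separate serum states was not counted. The separations given for Npm1, Fbl, Ddx21 and Polr1b are therefore description only. The probe set for Polr1b is of a type, marked f, that can also detect related sequences. Levels were not compared between genes, because brightness also depends on each probe set.

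**Figure D1:**
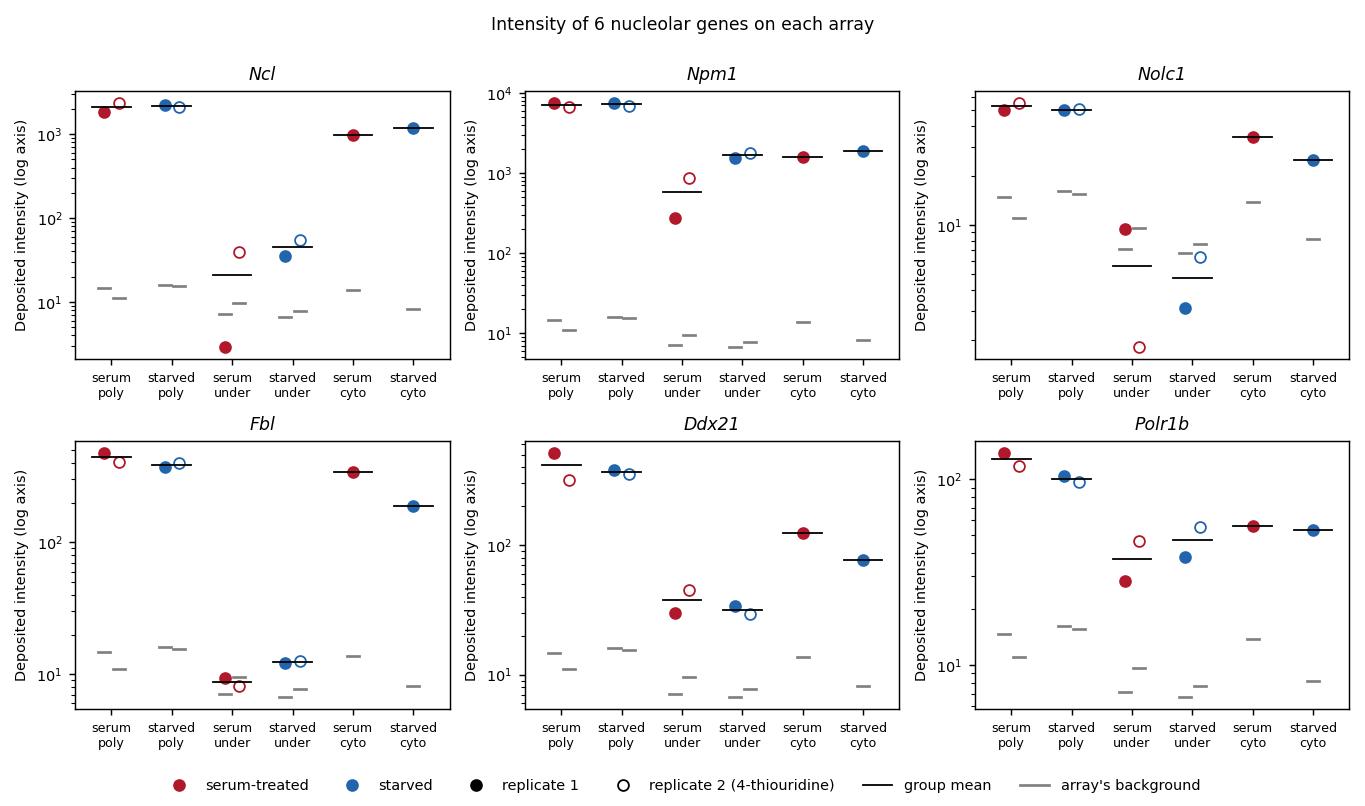
Deposited intensity (log axis) of each of the 6 genes on all 10 arrays, with the 6 groups along the horizontal axis, serum-treated in red, starved in blue, open circles for 4-thiouridine replicates, black lines for group means and grey lines for each array's background. Every gene sits higher in polyribosome than in undertranslated RNA, as most probe sets do as deposited. Under the background lines lie 1 Ncl point at 2.9, 1 Fbl point at 8.1 and 3 of the 4 undertranslated Nolc1 points.

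How the mRNAs were spread over the gradient was asked by subtracting undertranslated from polyribosome levels. Intensities were taken as log2(value + 1.5) and quantile scaled, which gives all arrays 1 common distribution, because array medians differed by 2.95 log2 units. A difference is therefore relative to the rest of the mRNA. Its standard error and p-value come from limma, with Benjamini-Hochberg adjustment over all probe sets tested and a threshold of 0.05. Averaged over the serum states, 4 of the 6 genes passed the test, against 54.2% of all probe sets, a share close to that background, and they went both ways. Fbl, Ncl and Npm1 were higher in polyribosome RNA, where 28.7% of all probe sets were called higher, and Polr1b was lower, where 25.5% were. In serum-treated cells 3 of the 6 passed, Fbl and Ncl as higher and Polr1b as lower, against 43.9% of all probe sets (23.5% higher and 20.5% lower). In starved cells 2 passed, Fbl as higher and Polr1b as lower, against 28.3% (14.6% higher and 13.7% lower).

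Fbl averaged 2.09 ± 0.42 (SE, 2 arrays a group) log2 units higher in polyribosome than in undertranslated RNA of serum-treated cells (limma, adjusted p = 0.00536). In starved cells the difference was 1.58 ± 0.42 (adjusted p = 0.0257). By replicate pair the scaled differences were 1.64 and 2.54 in serum-treated and 1.3 and 1.86 in starved cells. The deposited intensities gave closer ratios, 50.7 and 50.6 in serum-treated and 30.6 and 31.6 in starved pairs. Those ratios divide by dim undertranslated values of 8.1 to 12.7, of which 8.1 was below its array's background. Averaged over the states, the Fbl difference was 1.83 ± 0.3 (adjusted p = 0.00126). The call held with each array left out for the average and for serum-treated cells. For starved cells it held without either serum-treated undertranslated array and was lost without any 1 of the other 6, with adjusted p-values of 0.0604 to 0.183.

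Ncl averaged 2.72 ± 0.73 higher in polyribosome RNA over both states (limma, adjusted p = 0.0133). The difference was 3.69 ± 1.03 in serum-treated cells (adjusted p = 0.0209) and 1.76 ± 1.03 in starved cells (adjusted p = 0.231), where it passed with array weights (adjusted p = 0.0237) and with median centring (3.15, adjusted p = 0.00364). By replicate pair the scaled differences were 5.45 and 1.93 in serum-treated and 1.78 and 1.74 in starved cells, so 3 of the 4 pairs were alike. Without serum-treated undertranslated replicate 1, the array with the value of 2.9, Ncl averaged 1.71 higher (adjusted p = 0.000453) and 1.65 higher in serum-treated cells (adjusted p = 0.00624). Without its partner, serum-treated undertranslated replicate 2, the values were 3.74 and 5.73. The average lost its call without starved undertranslated replicate 1 (adjusted p = 0.0545), and the serum-treated difference lost it without serum-treated polyribosome replicate 1 (0.0697) or replicate 2 (0.11).

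Npm1 was 0.29 ± 0.11 higher in polyribosome RNA on average (limma, adjusted p = 0.0438), with 0.37 ± 0.15 in serum-treated (adjusted p = 0.073) and 0.21 ± 0.15 in starved cells. This small difference passed the test with serum-treated undertranslated replicate 2 left out and missed it with any other single array left out, with adjusted p-values of 0.0569 to 0.127. It also missed the test without the filter (adjusted p = 0.0654), with median centring (0.145), with array weights (0.153) and without the variance trend (0.294). Nolc1 was 0.84 ± 0.66 higher on average and did not pass (adjusted p = 0.304). In starved cells, where both undertranslated values were below background, its polyribosome level was at least 1.17-fold higher on the scaled values, without passing the test.

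Polr1b went the other way on this scale. It averaged 2.22 log2 units lower in polyribosome than in undertranslated RNA, with a difference of -2.22 ± 0.22 (limma, adjusted p = 0.000128), of -2.24 ± 0.31 in serum-treated cells (adjusted p = 0.00111) and of -2.21 ± 0.31 in starved cells (adjusted p = 0.00234). All 4 replicate pairs lay between -2.28 and -2.15, and the calls held with each array left out. The direction belongs to the scaling: as deposited the polyribosome values were higher by 1.44 log2 units, while the median of all probe sets was higher by 3, so Polr1b was brighter in polyribosome RNA by less than most mRNAs. With median centring the average was -1.03 (adjusted p = 0.00227) against a median of all probe sets of 0.54, and the serum-treated value of -0.75 did not pass (adjusted p = 0.0669). Scaled on 9 spiked hybridization controls, Polr1b was higher by 1.75 and the median by 3.31.

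Ddx21 had an average difference of -0.52 ± 0.24 that did not pass (limma, adjusted p = 0.0944), with -0.92 ± 0.34 in serum-treated (adjusted p = 0.0548) and -0.13 ± 0.34 in starved cells. With the replicate number as a block the serum-treated difference passed (adjusted p = 0.045). Its direction also depended on the scaling: it was higher in polyribosome RNA by 3.44 as deposited, by 3.75 on the hybridization controls and by 0.98 with median centring (adjusted p = 0.00415). Those values stand slightly above the median of all probe sets under the same scalings, whereas the quantile-scaled value stands below it.

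**Figure D2:**
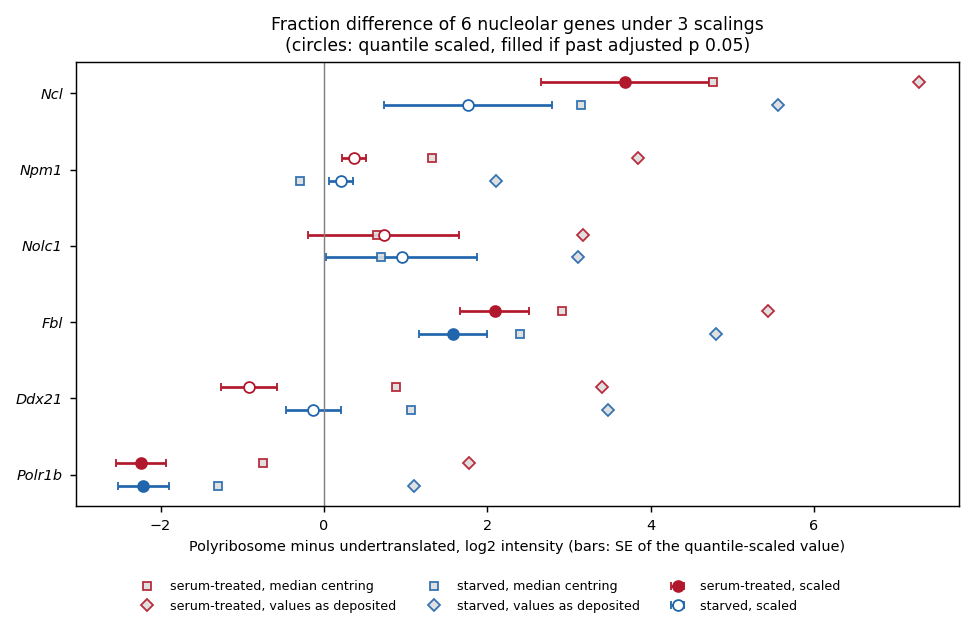
Polyribosome minus undertranslated log2 intensity of the 6 genes (horizontal axis), serum-treated in red above starved in blue, with circles for quantile-scaled values and their SE, filled past an adjusted p of 0.05, squares for median centring and diamonds for values as deposited. Fbl and Ncl lie right of 0 under each of the 3 scalings. Polr1b changes sides with the values as deposited, and Ddx21 with those and with median centring. Npm1 in starved cells changes sides with median centring.

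Serum was compared in polyribosome and cytoplasmic RNA together, with the pool as a term, 3 serum-treated against 3 starved arrays. None of the 6 genes passed the test (limma, 1 at an unadjusted p under 0.05), where 0.891% of all probe sets did, 0.666% as higher. The median difference of the 6 was 0.28 log2 units, against -0.0092 over all probe sets, and 4 of the 6 were above 0. Fbl was 0.53 ± 0.21 higher in serum-treated RNA (adjusted p = 0.374) and Ddx21 0.42 ± 0.21 higher (adjusted p = 0.491). Polr1b had a difference of 0.31 ± 0.18 and Nolc1 of 0.24 ± 0.19 (adjusted p of 0.542 and 0.687). Ncl was at -0.039 ± 0.2 and Npm1 at -0.23 ± 0.15 (adjusted p of 0.964 and 0.619). No value was called, so these signs do not divide the genes into kinds. Ncl ranged from -0.22 to 0.1 with 1 array left out. On the hybridization controls Nolc1 was at -0.088 and Polr1b at -0.029. Fbl was the gene with an unadjusted p under 0.05, and it missed the threshold after adjustment.

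The cytoplasmic pair of arrays, which is part of that fit, has no replicate check of its own. The ratio of serum-treated to starved deposited intensity was 1.82 for Fbl, 1.63 for Ddx21, 1.39 for Nolc1, 1.06 for Polr1b, 0.835 for Ncl and 0.831 for Npm1. In polyribosome RNA the replicate ratios were 1.29 and 1.02 for Fbl, 1.36 and 0.896 for Ddx21, 1.33 and 1.21 for Polr1b and 1.01 and 1.09 for Nolc1. They were 0.839 and 1.13 for Ncl and 0.984 and 0.979 for Npm1. The cytoplasmic gap of Fbl was therefore wider than either of its polyribosome gaps.

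In the fit of the 4 gradient groups, which shares its polyribosome arrays with the one above, the serum difference in polyribosome RNA called no probe set at all (0%), with 161 at an unadjusted p under 0.05 and none of them among the 6 genes, whose median was 0.2. In undertranslated RNA 1.07% of probe sets passed and none of the 6 genes did, with 2 at an unadjusted p under 0.05. Ddx21 was at 1.05 ± 0.34 (limma, adjusted p = 0.158), higher in both serum-treated replicates on the scaled values and in 1 of 2 as deposited. Npm1 was at -0.36 ± 0.15 (adjusted p = 0.252), lower in both replicates on either scale. Ncl was at -1.89 ± 1.03 (adjusted p = 0.342), with replicate differences of -3.75 and -0.038. Averaged over both gradient pools no probe set passed (0%), with 1073 at an unadjusted p under 0.05, among them Ddx21 at 0.65 ± 0.24 and Npm1 at -0.28 ± 0.11 (adjusted p of 0.349 and 0.378).

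The serum differences of Ncl and Nolc1 in undertranslated RNA hung on a single array. Without serum-treated undertranslated replicate 2, the Ncl serum difference was -3.93 in undertranslated RNA and -1.95 over both pools. Nolc1 in undertranslated RNA was at 1.99. That fit keeps the Ncl value of 2.9, below background, as the only serum-treated undertranslated value and assumes that it varies like the other groups. Calls over all probe sets rose in that fit as well, so no call from it is given here. Without serum-treated undertranslated replicate 1 instead, the Ncl differences were 0.15 and 0.093, and Nolc1 in undertranslated RNA was at -1.29. Both starved undertranslated values of Nolc1 were below background.

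**Figure D3:**
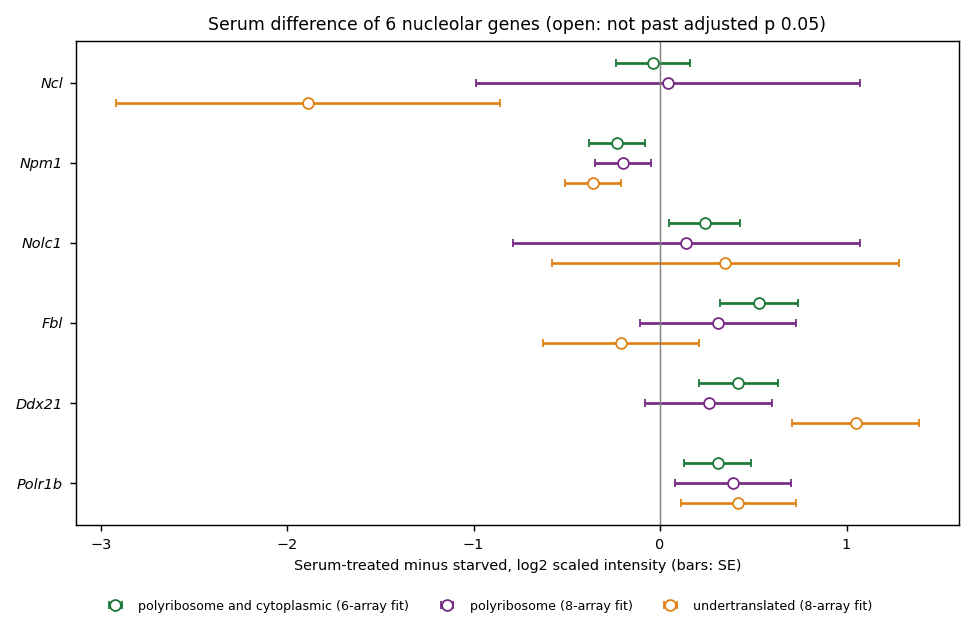
Serum-treated minus starved difference of scaled log2 intensity with its SE (horizontal axis) for each gene, in polyribosome and cytoplasmic RNA together (green), polyribosome RNA (purple) and undertranslated RNA (orange). All circles are open because no value passed an adjusted p of 0.05, and Ncl has the widest error bars, with an SE of 1.03 both in polyribosome RNA at 0.04 and in undertranslated RNA at -1.89.

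Whether serum moved these mRNAs along the gradient was asked by the change of the polyribosome minus undertranslated difference between the serum states. It called no probe set (0%), with 720 at an unadjusted p under 0.05 and none of them among the 6 genes. Ncl had the widest change, 1.93 ± 1.46 (limma, adjusted p = 0.749). That change was 3.97 without serum-treated undertranslated replicate 2 and -0.11 without replicate 1 of that group. Ddx21 was at -0.79 ± 0.48 (adjusted p = 0.716), Fbl at 0.51 ± 0.6, Npm1 at 0.16 ± 0.21, Nolc1 at -0.22 ± 1.32 and Polr1b at -0.026 ± 0.43. An SE of 0.43 to 1.46 for 5 of the genes leaves room for sizeable shifts in either direction. The difference between the serum-treated and starved calls of Ncl on the gradient is thus not shown to be a difference between the states.

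Polyribosome RNA was also set against the cytoplasmic pool, with serum state as a term. Of the 6 genes 2 passed, against 26.4% of all probe sets (14.5% higher and 11.9% lower). The polyribosome arrays are the same as in the gradient comparison. Npm1 was 1.02 ± 0.16 higher in polyribosome RNA (limma, adjusted p = 0.00264) and Fbl 0.76 lower, a difference of -0.76 ± 0.22 (adjusted p = 0.0334). Ncl had -0.66 ± 0.22 (adjusted p = 0.0514) and passed with the replicate number as a block, at -0.88 (adjusted p = 0.00942). Nolc1 had -0.42 ± 0.2, Polr1b -0.27 ± 0.19 and Ddx21 0.42 ± 0.22, none of which passed. The Npm1 call was lost without the serum-treated cytoplasmic array (0.98, adjusted p = 0.0662), and without that array the Fbl difference was -0.42 (adjusted p = 0.428). The Fbl call was also lost with median centring (-0.57, adjusted p = 0.108), without the variance trend (adjusted p = 0.0593) and without 3 of the 4 polyribosome arrays one at a time (adjusted p of 0.0648 to 0.0884). Directions are again relative: as deposited all 6 were brighter in polyribosome RNA, Fbl by 0.69 and Npm1 by 2.04, with a median of all probe sets of 1.3. On the hybridization controls neither passed, at -0.89 for Fbl and 0.45 for Npm1.

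The 6 genes thus had different profiles over the groups. On the scaled log2 values, Ncl was highest in starved cytoplasmic RNA (9.83) and serum-treated cytoplasmic RNA (9.63), followed by serum-treated (9.09) and starved polyribosome RNA (9.05), whose replicates overlapped, and then by starved (7.3) and serum-treated undertranslated RNA (5.4), which overlapped too. Fbl had the same descent by pool, with 8.12 in serum-treated and 7.13 in starved cytoplasmic RNA, 7.01 and 6.71 in serum-treated and starved polyribosome RNA, and 4.92 and 5.13 in serum-treated and starved undertranslated RNA. Nolc1 ranged from 5.12 in serum-treated cytoplasmic RNA to 3.46 in starved undertranslated RNA, and its gradient groups overlapped with their neighbours. Npm1 was lowest in the cytoplasmic pool, at 10.36 in serum-treated and 10.66 in starved cells, and highest in starved polyribosome RNA (11.63). Polr1b was highest in undertranslated RNA, at 7.79 in serum-treated and 7.37 in starved cells, and lay between 5.16 and 5.71 in the other groups. Ddx21 was highest in serum-treated undertranslated RNA (7.82) and lowest in starved cytoplasmic RNA (5.98), and the 4 groups between them overlapped in sequence.

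As a description, each gene's scaled profile was set against the mean profile of the 6 over the 10 arrays, which share the pools and their brightness. Pearson's r was 0.962 for Fbl, 0.763 for Ncl, 0.572 for Nolc1, -0.21 for Npm1, -0.539 for Ddx21 and -0.857 for Polr1b. Each gene is part of the mean it is set against, so its r is in part with itself. With r of both signs, the mean profile does not stand for all 6 genes. Among 8269 other probe sets with 1 symbol, the closest to the mean profile were Plaur (0.978), Ehd1 (0.972), Sec61a1 (0.972), Gar1 (0.971) and Tsr1 (0.97). Gar1 encodes a protein of the box H/ACA particles and Tsr1 a factor of small subunit assembly. Plaur, Ehd1 and Sec61a1, which were closer, are not in the list of ribosome biogenesis genes used below. The share of that list among close probe sets was not counted.

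The sequence just upstream of the transcription start is given for the 4 genes with an entry in the promoter table, because the study asks about the early response to serum and Myc, whose protein binds CACGTG, was among the regulators measured. Each line is the 120 bases before the start in RefSeq on build GRCm38.p6, read 5′ to 3′ on the gene's own strand, with the GC box, GGGCGG or its reverse complement CCGCCC, in capitals. The windows are chr1:86359456-86359575 on the minus strand for Ncl, chr19:46075727-46075846 on the plus strand for Nolc1, chr10:62602299-62602418 on the minus strand for Ddx21 and chr2:129100876-129100995 on the plus strand for Polr1b.
Ncl: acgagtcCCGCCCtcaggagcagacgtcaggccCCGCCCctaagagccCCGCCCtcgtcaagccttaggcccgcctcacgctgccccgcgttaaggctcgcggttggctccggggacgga
Nolc1: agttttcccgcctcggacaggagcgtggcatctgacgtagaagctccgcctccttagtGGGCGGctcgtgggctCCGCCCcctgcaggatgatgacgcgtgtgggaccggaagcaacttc
Ddx21: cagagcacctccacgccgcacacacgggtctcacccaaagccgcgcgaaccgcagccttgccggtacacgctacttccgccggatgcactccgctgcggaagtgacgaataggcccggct
Polr1b: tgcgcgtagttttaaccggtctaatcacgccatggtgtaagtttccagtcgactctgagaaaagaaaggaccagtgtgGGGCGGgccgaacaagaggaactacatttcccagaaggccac
A GC box was found 3 times in the Ncl window, 2 times in that of Nolc1, once in that of Polr1b and not in that of Ddx21. It occurs on either strand in 26.5% of 32851 such windows in the table. CACGTG, which is its own reverse complement, was in none of the 4 windows and is in 3.66% of all. These matches describe letters in a window and are not evidence of binding.

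The wider pathway was described with 153 symbols of ribosome biogenesis genes by role, of which 102 had a probe set and 100 were tested, the 6 genes included. With serum, in polyribosome and cytoplasmic RNA, none of the 100 passed, against 0.891% of all probe sets. Their median was 0.11 and 67 of the 100 were above 0, against a median of -0.0092 and 48.9% above 0 over all probe sets. The box C/D group had 7 of 7 above 0 and a median of 0.43. Nop56, a core protein of the same particle as fibrillarin, had 1401.3 and 1579.1 in serum-treated polyribosome RNA, against 1232.9 and 807.5 in starved, and 1005.3 in serum-treated and 619.3 in starved cytoplasmic RNA, a difference of 0.71 ± 0.18 (limma, adjusted p = 0.137). The box H/ACA group had 2 of 3 above 0 and a median of 0.49, with Nhp2 at 0.49 and Nop10 at -0.22. Gar1, of the same particles, had 0.69 ± 0.19 (adjusted p = 0.181), with serum-treated above starved values in polyribosome RNA (1844 and 1442.5 against 1296.1 and 1170.4) and in cytoplasmic RNA (717.3 against 387.4). Surf6, a nucleolar protein of large subunit assembly, had the widest difference of the list at 0.93 ± 0.21 (adjusted p = 0.111).

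The medians of the other roles were 0.2 for large subunit assembly (19 of 27 above 0), 0.18 for RNA polymerase I and its factors (10 of 17), 0.048 for helicases (7 of 11), 0.046 for small subunit assembly (17 of 26), 0.036 for nucleolar phosphoproteins and chaperones (2 of 4) and 0.0046 for the exosome (3 of 5). Taf1a, of the selectivity factor for RNA polymerase I, had 0.61 ± 0.18 (limma, adjusted p = 0.222) and Taf1b, of the same complex, -0.53 ± 0.25 (adjusted p = 0.452). Macrophage markers moved with serum in the same arrays: 5 of 8 tested passed as higher, against 0.666% of all probe sets, with a median of 1.26, and the summed intensity of all 12 measured was 3995 to 5016 in serum-treated and 1300 to 1576 in starved polyribosome RNA, and 864 in serum-treated and 386 in starved cytoplasmic RNA. Their part in the serum differences of the nucleolar genes was not tested.

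Of the regulators chosen by name none passed with serum in this fit. Myc had 189.7 and 112 in serum-treated and 86.3 and 59.8 in starved polyribosome RNA, and 141.3 in serum-treated and 127.4 in starved cytoplasmic RNA. The difference was 0.69 ± 0.23 (limma, adjusted p = 0.275). Max, its binding partner, had -0.54 ± 0.23 (adjusted p = 0.406) and Mtor -0.42 ± 0.18 (adjusted p = 0.426). Ubtf, the upstream binding factor of ribosomal DNA, had 0.18 ± 0.19 (adjusted p = 0.766) and Rrn3, the initiation factor of RNA polymerase I, -0.15 ± 0.17 (adjusted p = 0.78). Rps6kb1 and Trp53 had no probe set named for them alone.

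Over the gradient, 39 of the 100 pathway genes were higher and 26 lower in polyribosome than in undertranslated RNA, and 35 did not pass. Over all probe sets 28.7% were called higher and 25.5% lower, so the share called lower was about that of the background. The median was 0.53, against 0.046 over all probe sets. Without the 6 nucleolar genes the counts were 36 and 25 of 94. These directions are relative to the rest of the mRNA: as deposited 95 were higher and none lower, and with median centring 64 were higher and 13 lower. As deposited 8471 of 9316 probe sets were called in either direction, with a median of all probe sets of 3. With median centring that median was 0.54. The shares of all probe sets above and the calls below are of quantile-scaled values. Calls in both directions occurred within the groups of Fbl and of Polr1b, and no difference between roles was tested. In the box C/D group Ruvbl1, an ATPase of particle assembly, was higher by 2.16 ± 0.58 (limma, adjusted p = 0.0132) and Nop58 by 1.03 ± 0.26 (adjusted p = 0.0101), whereas Rrp9 was lower, at -2.03 ± 0.29 (adjusted p = 0.000665). In the box H/ACA group Gar1 was higher (0.95 ± 0.18, adjusted p = 0.00241) and Nhp2 (-1.58 ± 0.2, adjusted p = 0.000327) and Nop10 (-0.83 ± 0.26, adjusted p = 0.0259) were lower. Among RNA polymerase I genes 5 were higher and 5 lower of 17. The subunit genes Polr1c (-2.18 ± 0.24, adjusted p = 0.000185) and Polr2l (-1.85 ± 0.16, adjusted p = 8.07e-05) were lower like Polr1b. As deposited both were brighter in polyribosome RNA. The probe sets of Polr1c and Ddx27 are of a type marked r and those of Taf1d and Exosc5 of a type marked i. That of Nop58 is marked f, like that of Polr1b. How specific these probe sets are was not tested. The subunit gene Polr2h was higher (adjusted p = 0.000294), with 99.2 and 78.6 in serum-treated and 99.8 and 143.2 in starved polyribosome RNA, against 2 or less on all 4 undertranslated arrays, where it was below background, so that it was at least 1.69-fold higher on the scaled values. The others called higher were Polr2e, Polr1d, Polr1e and Ubtf, with adjusted p-values of 0.000651, 0.0196, 0.0129 and 0.0262, and the first 3 of these were named after their values were seen. Taf1d had -3.13 ± 0.19, and it was brighter in undertranslated RNA in 3 of 4 replicate pairs as deposited, with 2835.5 and 2116.2 in serum-treated and 2916 and 1392.6 in starved polyribosome RNA, against 2110.6 and 3548.2 in serum-treated and 3868.7 and 4254.9 in starved undertranslated RNA.

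Helicases had 4 higher and 6 lower of 11, and Ddx21 was the 1 that did not pass. Ddx27 was lower by the widest margin of that group (-2.95 ± 0.2, limma, adjusted p = 3.03e-05) and Ddx5 was higher (1.89 ± 0.32, adjusted p = 0.00142). Large subunit assembly had 13 higher and 3 lower of 27. Gnl2, a nucleolar GTPase, was higher by 2.6 ± 0.3 (adjusted p = 0.000229), with 2 of its 4 undertranslated values below background. Pes1 and Surf6 were below background on all 4 undertranslated arrays and were at least 1.75-fold and at least 1.77-fold higher in polyribosome RNA (adjusted p of 0.000367 and 0.00058). Small subunit assembly had 10 higher and 6 lower of 26, with Utp4 at least 4.39-fold higher (adjusted p = 0.000779) and Tbl3 at -2.69 ± 0.28 (adjusted p = 0.000161). The exosome had 1 higher and 3 lower of 5, with Exosc5 at -3.34 ± 0.23 (adjusted p = 2.81e-05). Of the regulators Ubtf (1.14 ± 0.36, adjusted p = 0.0262), Mtor (1.78 ± 0.41, adjusted p = 0.00686) and Cdkn2a, which encodes the nucleophosmin-binding protein ARF (2.62 ± 0.45, adjusted p = 0.00162), were higher in polyribosome RNA. In undertranslated RNA Ubtf was above background on 3 of 4 arrays, and Mtor and Cdkn2a on 2 of 4. Myc (0.55), Mycn (0.69), Max (0.026) and Rrn3 (0.58) did not pass.

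In undertranslated RNA alone, 1 of the 100 pathway genes passed the test with serum, a share like the 1.07% of all probe sets. Gnl2 was called lower (limma, adjusted p = 0.0386), with 1.4 and 1.7 in serum-treated and 9.1 and 10.2 in starved undertranslated RNA. Both serum-treated values were below background, so no fold is given. The call is fragile: in undertranslated RNA no probe set at all was called with array weights, or when any 1 array other than the serum-treated undertranslated ones was left out.

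**Figure D4:**
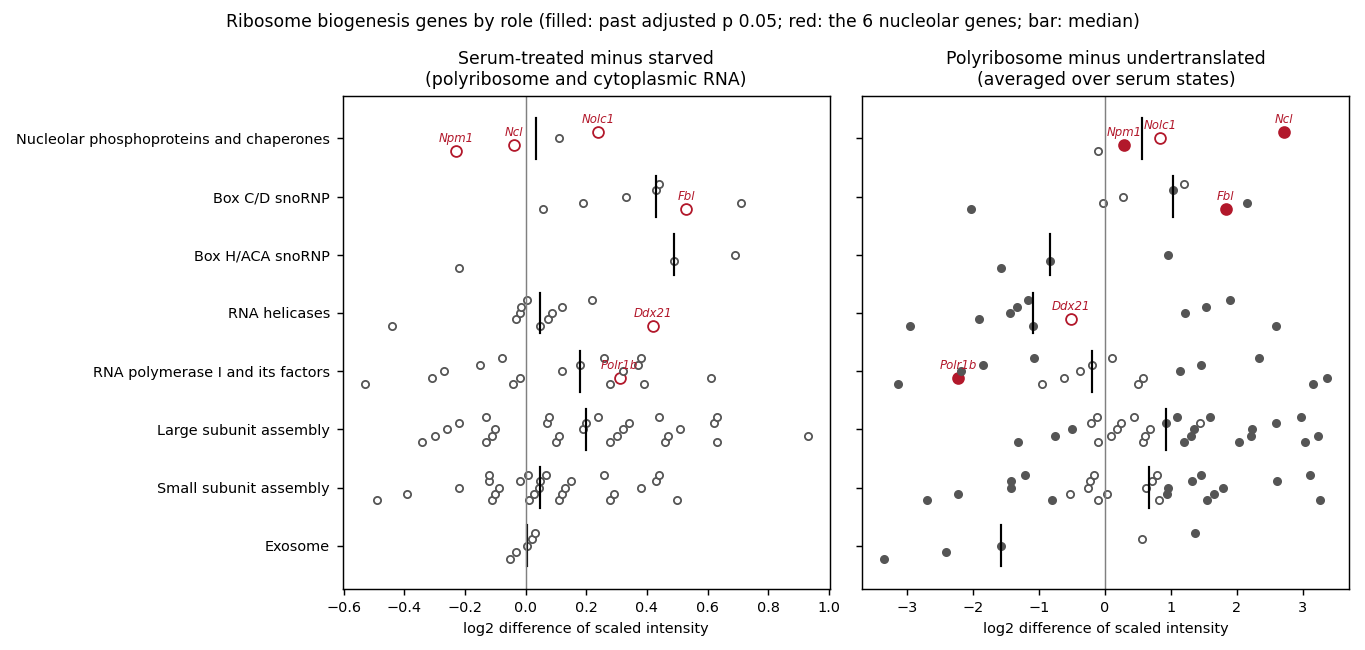
Log2 difference of each tested ribosome biogenesis gene (horizontal axes) by role, serum-treated minus starved on the left and polyribosome minus undertranslated on the right, with filled circles past an adjusted p of 0.05, the 6 nucleolar genes in red and black bars for the group medians. No circle is filled on the left, and on the right filled circles lie on both sides of 0, with group medians from -1.58 for the exosome to 1.03 for box C/D particles.

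The gradient pools also allowed replicate 2, labelled with 4-thiouridine, to be set against replicate 1, unlabelled. No probe set passed (0%), with 602 at an unadjusted p under 0.05 and none of them among the 6 genes. Ncl had the widest difference of the 6, 1.33 ± 0.6 (limma, adjusted p = 0.693), in which the unlabelled value of 2.9 takes part.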

How the data were processed

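The deposited table holds 1 intensity per probe set and array on a linear scale. Per the labels' protocols, cDNA was made, amplified linearly and biotin-labelled for Affymetrix arrays. How the authors summarised and scaled the deposited intensities is not given in the sources used here. Of 12488 probe sets, 66 controls were left out. Of the others, 10833 had 1 symbol in the platform annotation, 396 several and 1193 none.

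A pseudocount of 1.5, the 10th percentile over the table, was added before log2, which shrinks differences of dim genes. Arrays were quantile scaled, since their medians differed by 2.95 log2 units against a limit of 0.25. The filter kept probe sets whose mean scaled level exceeded the 25th percentile. limma 3.58.1 in R 4.3.3 (lmFit, eBayes with a trend) fitted 8 gradient arrays in 4 groups, with 4 residual degrees of freedom, or 6 polyribosome and cytoplasmic arrays, with 3. Tests were two-sided. The probe set with the highest mean level stands for its gene. If a probe set exceeded background on no array of a group, its fold is a bound against its own level or the lowest level above background, whichever is higher. The fits were tested on simulated data.

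Replicate numbers come from the labels, where number 2 marks 4-thiouridine labelling, and so pair arrays. Same-numbered arrays deviated from their group means with a correlation of 0.275 for the polyribosome groups and 0.0171 to 0.0535 for other pairs of groups. Alternatives were leaving out each array, other scalings, pseudocounts of 1 and 4, filters, no variance trend, array weights, fits on other sets of arrays and the replicate block. Scaling by 9 hybridization controls, controls kept in the scaling and only probe sets above background on all arrays of a fit were added after seeing the data. Pathway genes are named where called with the smallest adjusted p, up to 4 per role, or otherwise as the 2 widest differences of a role. The genes, lists and tests were chosen with earlier results of these data known. The number of arrays limits the precision.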

Additional observations from a re-analysis of the deposited data

How the results depend on the processing

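Of 1098 values of the 6 genes under alternatives, 968 kept their direction and their side of the threshold, 30 lost a call, 35 gained one and 65 turned direction. Most turns came with scaling. For polyribosome minus undertranslated RNA as deposited, Ddx21 was at 3.44 on average, 3.41 in serum-treated and 3.48 in starved cells, and Polr1b at 1.44, 1.78 and 1.1. On the hybridization controls Ddx21 was at 3.75, 3.52 and 3.98 and Polr1b at 1.75, 1.89 and 1.61. With median centring Ddx21 was at 0.98, 0.88 and 1.07, and Npm1 in starved cells at -0.29. For polyribosome minus cytoplasmic RNA as deposited, Ncl was at 0.98, Nolc1 at 0.79, Fbl at 0.69 and Polr1b at 1.03.

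Serum differences that turned had not passed. On the hybridization controls they were Nolc1 at -0.088 and Polr1b at -0.029 in polyribosome and cytoplasmic RNA, Nolc1 at -0.11, Fbl at -0.27 and Polr1b at -0.14 over the gradient, and Ncl at -0.38, Nolc1 at -0.27, Fbl at -0.14, Ddx21 at -0.2 and Polr1b at -0.00038 in polyribosome RNA, and Polr1b at -0.29 in undertranslated RNA. As deposited they were Fbl at -0.12 over the gradient, Ncl at -0.039 in polyribosome RNA, and Nolc1 at -0.00079 and Polr1b at -0.34 in undertranslated RNA. With median centring they were Npm1 at 0.078 in polyribosome and Polr1b at -0.11 in undertranslated RNA. The change of the gradient difference with serum turned for Nolc1 (0.067 as deposited) and Polr1b (0.67 as deposited, 0.55 with median centring, 0.29 on the controls).

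With 1 array left out, values ranged across 0 for Ncl with serum in polyribosome and cytoplasmic RNA (-0.22 to 0.1), over the gradient (-1.95 to 0.093), in polyribosome (-0.24 to 0.32) and in undertranslated RNA (-3.93 to 0.15), for Nolc1 over the gradient (-0.58 to 1.06) and in undertranslated RNA (-1.29 to 1.99), for Fbl over the gradient (-0.2 to 0.3) and in undertranslated RNA (-0.71 to 0.3), and for Ddx21 in polyribosome RNA (-0.0036 to 0.52). So did the gradient differences of Nolc1 in serum-treated (-0.9 to 2.37) and Ddx21 in starved cells (-0.41 to 0.16), and the changes with serum of Ncl (-0.11 to 3.97), Nolc1 (-1.86 to 1.42) and Polr1b (-0.15 to 0.1).

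Calls on the gradient depended on the scaling for all probe sets. Averaged over the states, 8471 of 9316 were called as deposited, against 5052 with quantile scaling. As deposited the median of all probe sets was 3.16 in serum-treated and 2.8 in starved cells. On the hybridization controls it was 3.28 and 3.31, and with median centring 0.4 in starved cells. The number of the 6 genes called on the gradient was 4 on average, 3 in serum-treated and 2 in starved cells. As deposited and on the hybridization controls it was 6 in serum-treated and 6 in starved cells, with median centring 4 in starved cells, and among probe sets above background on all arrays, which leaves out Ncl, Nolc1 and Fbl, 2 on average and 1 in starved cells. With 1 array left out it ranged from 2 to 4 on average, 2 to 5 in serum-treated and 1 to 3 in starved cells. For polyribosome minus cytoplasmic RNA the count of 2 was 6 as deposited, 1 with median centring or without the variance trend, 0 on the controls, and 0 to 3 with 1 array left out. Counts of 0 over the gradient, in undertranslated RNA and for the change with serum rose without serum-treated undertranslated replicate 2. For the serum differences over the gradient and in undertranslated RNA, calls over all probe sets rose there as well. The cause was not tested.

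Over all probe sets the 83 serum calls in polyribosome and cytoplasmic RNA were 24 without the filter, 19 without the trend, 149 with the replicate block and as few as 5 without either cytoplasmic array. The 100 calls in undertranslated RNA were 52 with the block, and 2302 without serum-treated undertranslated replicate 2. The replicate block changed 2 calls of the 6 genes, both given above (Ddx21 on the gradient in serum-treated cells at -0.92, Ncl in polyribosome against cytoplasmic RNA at -0.88), and no other. Replicate number 2 coincides with 4-thiouridine labelling, and the 2 cannot be told apart.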
